A study of Mus musculus with 16 samples.

Results

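The 43 genes described here act in mitosis, from the entry into division to cytokinesis. They are the rows of the deposited expression table whose gene name is on a list of 43 names, and all 43 were found among its 22552 genes. The table holds RNA-seq levels as FPKM, read fragments scaled by transcript length and library size, for 16 mouse pluripotent stem cell lines with 1 library per line. AN lines are nuclear transfer embryonic stem cells, obtained by moving the nucleus of an adipocyte progenitor cell (APC) into an enucleated oocyte. AI lines are induced pluripotent stem cells, obtained from APCs by switching on reprogramming factors with doxycycline. All 16 lines carry the 129-M2rtTA background, descend from APCs of mice made wholly from an earlier iPSC line, and grew in ES cell medium with serum and LIF. A tetraploid complementation assay, which asks whether a line can form a whole mouse, divided them into fully (F) and partially (P) reprogrammed lines.

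The 4 AN F lines were AN1, AN9, AN15 and AN20. Their partially reprogrammed counterparts, AN P, were AN7, AN6, AN5, AN3 and AN2. The AI F lines were AI3, AI7, AI10 and GS32. AI P held AI9, GS4 and GS9. AN lines were at passage 5 to 7 and the new AI lines at passage 7. GS32, GS4 and GS9 were established earlier and were at passage 13, 17 and 6. The source entry of GS9 and of GS32 names GS4, in conflict with their titles, and the titles were used here. Each line is 1 clone, and its library has no repeat. P-values therefore measure the spread between lines within a group.

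Cells enter mitosis when cyclin-bound Cdk1 is activated, condense their chromosomes, and attach them through kinetochores to the microtubules of a spindle built by kinesin motors. The spindle checkpoint holds the cell until every chromosome is attached, after which Cdc20 directs the anaphase-promoting complex (APC/C) to degrade securin and the B-type cyclins. Most of these genes are transcribed in G2 and M phase, and embryonic stem cells divide rapidly with a short G1 phase. Many G2/M promoters carry CCAAT boxes, bound by NF-Y, and a cell cycle homology region (CHR), bound by the DREAM and B-MYB-MuvB complexes.

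The RefSeq promoter table for build GRCm38.p6 gave 37 promoters for 35 of the 43 genes, each running from 250 bases before to 50 bases after the start of transcription. Promoters of Aurkb, Spc24, Ccna2, Kif20a, Smc4, Cdc25c, Incenp and Tpx2 were not used here. CHR letters, read as TTTGAA or as TTTAAA on both strands, stood in 30 of the 37 promoters, 81.1%, and in 27.6% of all 32851 promoters in the table. CCAAT on either strand stood in 75.7% of the mitosis promoters and in 37.4% of all promoters, and at least 2 CCAAT matches stood in 48.6% and 11.7%. CHR letters and CCAAT occurred together in 70.3% against 10.7%, and a match of each may share a base. E2F letters, read on both strands as TTTCGCGC, as TTTGGCGC, as TTTCCCGC or as TTTGCCGC, were rarer, in 8.11% against 2.26%. A match is a description of the letters in this window and does not show that a factor was bound.

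The stretches printed are the 180 bases directly before the start of 7 genes. Cdc20, Top2a, Cenpa and Mad2l1 had the highest level of their class among genes with a promoter in the table. Kif11, Cenpe and Ncapg were among the 5 genes of smallest p between AN F and AN P. Capitals mark CHR letters and CCAAT boxes on either strand, so that a CCAAT box of the other strand reads ATTGG and TTTGAA of the other strand reads TTCAAA.
Cdc20, chr4:118437344-118437523, minus strand: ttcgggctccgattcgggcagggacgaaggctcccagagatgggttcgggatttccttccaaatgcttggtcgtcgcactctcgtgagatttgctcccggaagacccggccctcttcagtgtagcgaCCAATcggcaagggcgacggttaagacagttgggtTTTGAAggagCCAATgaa
Top2a, chr11:99024190-99024369, minus strand: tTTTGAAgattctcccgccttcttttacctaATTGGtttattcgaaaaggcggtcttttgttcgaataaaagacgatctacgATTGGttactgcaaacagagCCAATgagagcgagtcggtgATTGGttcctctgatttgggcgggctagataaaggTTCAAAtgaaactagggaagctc
Cenpa, chr5:30666706-30666885, plus strand: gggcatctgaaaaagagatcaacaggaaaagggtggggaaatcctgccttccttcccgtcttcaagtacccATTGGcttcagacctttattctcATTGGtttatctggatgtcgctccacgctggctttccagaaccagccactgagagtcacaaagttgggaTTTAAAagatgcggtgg
Ncapg, chr5:45669745-45669924, plus strand: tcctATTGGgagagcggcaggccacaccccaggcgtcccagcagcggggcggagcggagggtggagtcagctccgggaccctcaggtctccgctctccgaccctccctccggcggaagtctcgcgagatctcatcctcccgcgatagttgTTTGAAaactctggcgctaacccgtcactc
Kif11, chr19:37376202-37376381, plus strand: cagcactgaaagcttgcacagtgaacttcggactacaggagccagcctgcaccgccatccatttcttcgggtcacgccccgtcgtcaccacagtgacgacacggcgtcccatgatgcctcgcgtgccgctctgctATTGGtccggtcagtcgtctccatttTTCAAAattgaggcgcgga
Cenpe, chr3:135212383-135212562, plus strand: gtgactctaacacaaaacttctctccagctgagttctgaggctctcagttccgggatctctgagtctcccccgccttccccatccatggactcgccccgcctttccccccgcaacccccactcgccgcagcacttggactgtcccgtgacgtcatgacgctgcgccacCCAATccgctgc
Mad2l1, chr6:66535041-66535220, plus strand: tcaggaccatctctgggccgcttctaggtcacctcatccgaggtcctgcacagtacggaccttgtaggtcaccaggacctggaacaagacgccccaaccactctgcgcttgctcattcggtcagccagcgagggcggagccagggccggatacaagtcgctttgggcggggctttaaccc
Top2a had 4 CCAAT boxes and 2 CHR matches in this stretch, while Mad2l1 had neither. Cdc20 and Cenpa had 2 CCAAT boxes and 1 CHR match each, Ncapg and Kif11 had 1 of each, and Cenpe had 1 CCAAT box without CHR letters.

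All 43 genes were expressed in all 16 lines. Their mean level over the lines ran from 9.56 FPKM for Cdc25c to 222.4 FPKM for Cdc20, with a median of 48.5 FPKM. FPKM is scaled by transcript length, which allows only a rough comparison of levels between genes. Effects of base composition were not removed here. The lowest of the 43 genes stood at percentile 71.6 of the genes in the table. Over the 16 lines the coefficient of variation (the SD as a percentage of the mean) ran from 8.49% for Bub3 to 27.5% for Bub1, with a median of 15.2%. The 6398 genes expressed at or above the level of Cdc25c had a median of 15.1%, close to that of the mitosis genes. They were not matched to the mitosis genes by level. All 43 passed the filter for testing, a mean of at least 0.5 FPKM over the 16 lines, which left 13185 genes.

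Among the spindle checkpoint genes, Mad2l1, which holds Cdc20 inactive, had the highest mean at 103.6 FPKM. Bub3 and Bub1b, its partners in the checkpoint complex, had means of 87.2 and 71.5 FPKM. The kinases Bub1 and Ttk, which recruit that complex to kinetochores, had means of 29.6 and 27.8 FPKM.

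Genes of mitotic entry and exit covered the widest range. Cdc20 was followed by Ccnb1 at 167.9 and Ube2c at 159.2 FPKM, the major mitotic cyclin and the ubiquitin-conjugating enzyme of the APC/C. The kinases Plk1 and Aurka, which drive centrosome maturation and spindle assembly, had means of 92.6 and 69.1 FPKM. Ccna2 had a mean of 87.3 FPKM, Ccnb2 55.2, Cdk1 43.9 and Nek2, a kinase of centrosome separation, 38.8. Securin (Pttg1) and separase (Espl1), the inhibitor and the protease that cuts cohesin, had means of 26.4 and 21.4 FPKM. The phosphatase Cdc25c, which activates Cdk1, was the lowest of all.

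The kinesins were led by Kif20a, needed for cytokinesis, at 59.0 FPKM. Kif2c, a microtubule depolymerase, had a mean of 42.4, Kif23, a centralspindlin motor, 40.6, Kif11, which pushes spindle poles apart, 36.8, and the chromokinesin Kif4 15.4 FPKM. Of the centromere and kinetochore genes, the centromeric histone Cenpa was highest at 74.6 FPKM. The 4 subunits of the Ndc80 complex, which binds microtubules, were at 67.1 (Spc25), 45.0 (Spc24), 31.7 (Ndc80) and 29.4 FPKM (Nuf2). The kinetochore motor Cenpe and the coiled-coil protein Cenpf were lowest in this class, at 20.4 and 17.4 FPKM.

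The chromosomal passenger complex corrects wrong attachments. Its targeting subunits Cdca8 (borealin) and Birc5 (survivin) had means of 103.9 and 99.2 FPKM, the scaffold Incenp 88.2, and the kinase Aurkb 36.8. Top2a, which untangles DNA, had 172.3 FPKM. The condensin ATPases Smc4 and Smc2 had 77.0 and 48.5 FPKM, and the condensin I subunits Ncapd2, Ncapg and Ncaph 66.0, 33.4 and 27.1 FPKM. Among the remaining genes, the spindle assembly factor Tpx2 had 67.7 FPKM, the midzone bundler Prc1 50.3, the furrow protein Anln 28.1 and the spindle protein Nusap1 27.3.

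**Figure D1:**
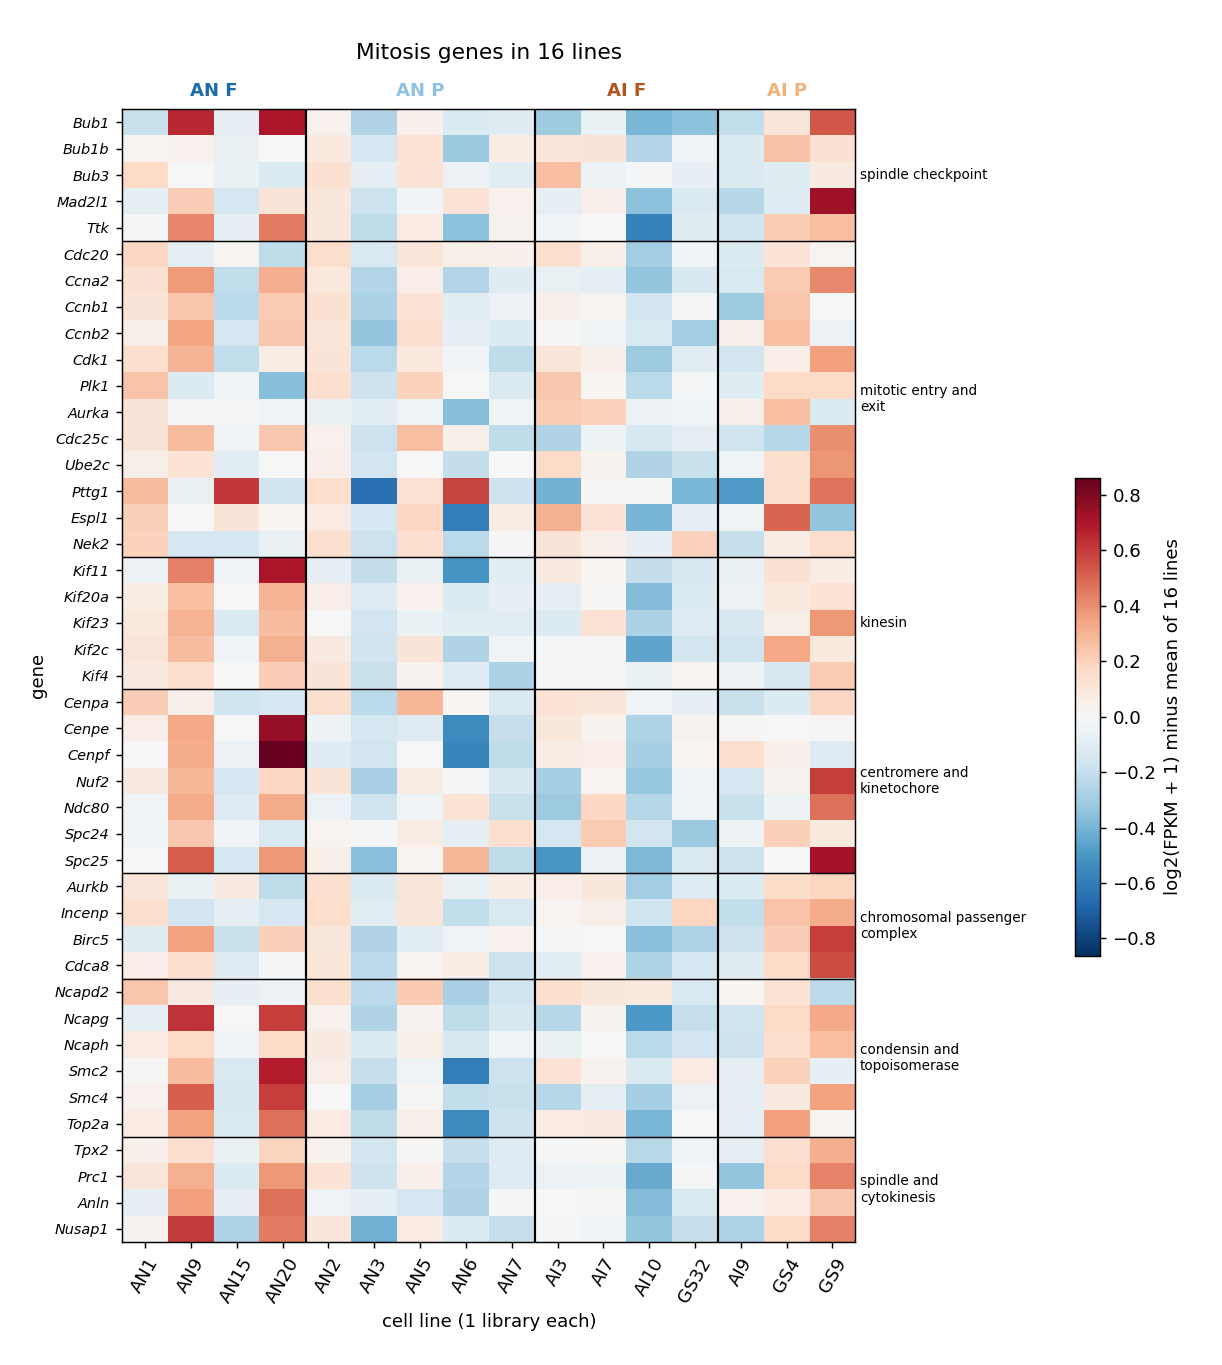
Level of each of the 43 mitosis genes (rows, by class) in each of the 16 lines (columns, by group), as log2(FPKM + 1) minus the gene's mean over the 16 lines. Columns AN9, AN20 and GS9 are mostly red, above the mean, and columns AN3, AN6 and AI10 are mostly blue, below it.

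The genes moved together from line to line. Over the 903 pairs of mitosis genes, the median Pearson correlation of log2(FPKM + 1) across the 16 lines was 0.49, and 91.8% of pairs were above 0, against a median of 0.004 over all pairs of tested genes. These correlations are descriptions, since all points share the same 16 libraries and the same scaling. The pairs were closest within the spindle and cytokinesis class (median 0.85), the kinesins (0.74) and the condensin and topoisomerase class (0.72). Ccna2 followed the mean of the other 42 genes most closely (r = 0.97), then Tpx2 (0.96) and Ncaph (0.95). Securin (Pttg1, 0.22), Bub3 (0.22), Aurka (0.23), Plk1 (0.24), Ncapd2 (0.26) and Cdc20 (0.27) followed it least.

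The level of the set in a line, the mean log2(FPKM + 1) over the 43 genes, was highest in GS9 (5.90), AN9 (5.89), AN20 (5.88) and GS4 (5.79). It was lowest in AI10 (5.41), AN3 (5.46), AN6 (5.51) and AI9 (5.54). The 8 lines between were AN2 at 5.74, AN1 at 5.74, AN5 at 5.73, AI7 at 5.70, AI3 at 5.65, AN15 at 5.60, AN7 at 5.57 and GS32 at 5.57. GS9 held the highest value of 17 genes and AN20 of 10, while AI10 held the lowest of 19 and AN6 of 11. The same counts over all tested genes were not made. AN9 and AN20 are fully and GS4 and GS9 partially reprogrammed lines, so the high lines fell in opposite groups of the AN and AI series.

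These 4 lines also had the lowest fibroblast marker means, though AN20 by a narrow margin. The mean log2(FPKM + 1) of 18 fibroblast markers was lowest in GS9 (4.32), GS4 (4.73), AN9 (5.07) and AN20 (5.18) and ran from 5.21 to 6.31 in the other 12 lines. The AN lines were derived on a feeder layer of mouse embryonic fibroblasts. None of the 18 markers was at 0 in any line, with the lowest value 0.819 FPKM for Lum, and Col1a1 and Vim ran from 27.4 to 231.1 and from 178.7 to 631.0 FPKM. In bulk RNA, fewer cells of a type and less RNA per cell cannot be told apart. Stem cell markers were present in every line, with Pou5f1 at 614.6 to 1222 FPKM and Nanog at 47.7 to 130.5 FPKM, and their 13-gene mean was highest in GS4 (7.51) and GS9 (7.20) and lowest in AN6 (6.38). Small RNA genes took 28.1% and 27.9% of all FPKM in AN9 and AN20 and 15.8% to 23.3% in the other 14 lines. The sum of all FPKM ran from 661973 to 963434, highest in GS9. Relative depth, read from the step between low FPKM values, was 0.962 to 1.26 times that of AN1.

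**Figure D2:**
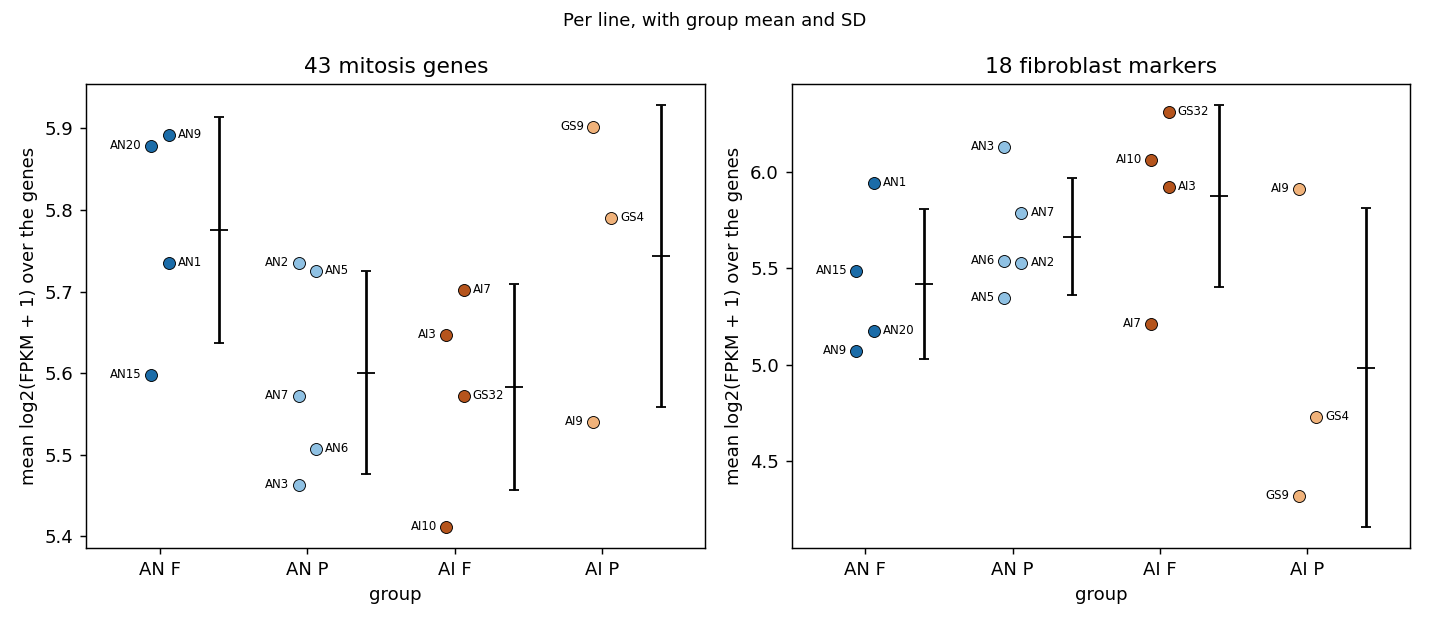
Mean log2(FPKM + 1) over the 43 mitosis genes (left) and over 18 fibroblast markers (right) in each line, by group, with the group mean and SD beside the points. AN9, AN20, GS4 and GS9 have the highest mitosis gene means, 5.79 to 5.90, and the lowest fibroblast marker means, 4.32 to 5.18.

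The first comparison asked whether fully and partially reprogrammed nuclear transfer lines differ in these genes. Mitosis genes were on average higher in AN F: 35 of 43 had a positive difference in log2(FPKM + 1), with a median of 0.166, against a positive difference in 46.2% of all tested genes and a median of -0.015. With limma and Benjamini-Hochberg adjustment over all 13185 genes, no mitosis gene and no other gene passed an adjusted p of 0.05, and the smallest adjusted p was 0.636. At an unadjusted p under 0.05, 8 of 43 were higher in AN F and 0 were lower, where 3.02% of all genes were higher and 2.99% lower. These 8 were Cenpe, Kif11, Cenpf, Smc4, Ncapg, Kif20a, Kif23 and Top2a. In 2 genes, Cenpe and Kif11, all 4 AN F lines stood above all 5 AN P lines, which 0.584% of tested genes did.

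Cenpe, the motor that carries chromosomes to the spindle equator, lies at chr3:134875527-134936504 in build NCBIM37 (mm9). It had 20.8, 25.3, 19.9 and 34.3 FPKM in AN1, AN9, AN15 and AN20, and 19.4, 17.9, 18.4, 13.4 and 17.3 FPKM in AN2, AN3, AN5, AN6 and AN7. AN20 was far above the others and AN6 the lowest, and the groups did not overlap. The difference in log2(FPKM + 1) was 0.49 ± 0.16 (SE), with an unadjusted limma p of 0.0141 and an exact two-sided permutation p of 0.0159, the smallest that 4 against 5 lines allow. Kif11 (chr19:37450893-37496349), the motor that separates the spindle poles, had 34.8, 49.1, 35.4 and 59.3 FPKM in the same AN F lines and 34.4, 31.1, 34.6, 25.1 and 33.7 in the AN P lines. AN1 exceeded AN5 by a narrow margin, and the groups again did not overlap. Its difference was 0.45 ± 0.17 (limma unadjusted p = 0.0240, exact permutation p = 0.0159).

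Cenpf, a large kinetochore protein, had 17.0, 21.5, 16.3 and 31.6 FPKM in AN1, AN9, AN15 and AN20 against 15.7, 15.1, 16.9, 11.1 and 14.4 in the AN P lines. AN15 fell inside the AN P range, and the difference was 0.50 ± 0.19 (limma unadjusted p = 0.0279, exact permutation p = 0.0317). The condensin gene Smc4 had 77.6, 108.5, 68.6 and 115.0 FPKM in AN F and 75.6, 61.8, 76.1, 65.0 and 65.9 in AN P, a difference of 0.39 ± 0.16 (limma unadjusted p = 0.0316, exact permutation p = 0.0635). Ncapg, which with Ncapd2 and Ncaph completes condensin I, had 30.9, 50.9, 32.6 and 49.7 FPKM in AN F and 33.5, 27.1, 33.3, 27.8 and 29.5 in AN P. Its difference was 0.40 ± 0.16 (limma unadjusted p = 0.0355, exact permutation p = 0.0952). In Smc4 and Ncapg only AN9 and AN20 lay clearly above the AN P lines.

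Kif20a, Top2a and Tpx2 are the highest genes of the kinesin, condensin and topoisomerase, and spindle and cytokinesis classes. Kif20a had 61.5, 70.6, 58.7 and 72.0 FPKM in AN F against 61.1, 54.3, 60.2, 53.9 and 55.9 in AN P, a difference of 0.20 ± 0.08 (limma unadjusted p = 0.0361, exact permutation p = 0.0635). Top2a had 177.9, 215.5, 155.8 and 236.4 FPKM against 178.6, 145.5, 175.7, 115.7 and 150.0, a difference of 0.36 ± 0.16 (limma unadjusted p = 0.0482, exact permutation p = 0.0794). Tpx2 had 69.4, 74.6, 64.6 and 77.2 FPKM against 68.8, 60.3, 67.9, 58.5 and 62.2, a difference of 0.17 ± 0.08 (limma unadjusted p = 0.0603). In all 3 genes AN9 and AN20 were the 2 highest of the 9 AN lines.

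Cdc20, Mad2l1, Cenpa and Cdca8 overlapped widely. The APC/C activator Cdc20 averaged 218.9 ± 25.8 FPKM (SD, n = 4) in AN F and 228.7 ± 16.5 FPKM (SD, n = 5) in AN P, with an exact permutation p of 0.524. Its highest AN line was AN1 at 251.3 FPKM and its lowest AN20 at 189.9 FPKM, so AN20, high for most of the set, was lowest here. Mad2l1 ran from 91.8 to 118.4 FPKM in AN F and from 89.6 to 110.7 FPKM in AN P, with means of 104.3 and 103.0 FPKM (exact permutation p = 0.905). Cenpa ran from 65.8 to 86.2 and from 63.1 to 90.8 FPKM (exact permutation p = 0.810), and Cdca8 from 95.3 to 114.1 and from 88.1 to 110.7 FPKM (exact permutation p = 0.492).

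By class, the AN F minus AN P medians were largest for condensin and topoisomerase, 0.373, with 6 of 6 genes positive and 3 at an unadjusted p under 0.05. The spindle and cytokinesis class had a median of 0.260 (4 of 4 positive, 0 at that p), the kinesins 0.213 (5 of 5, 3) and the centromere and kinetochore genes 0.193 (5 of 7, 2). Mitotic entry and exit genes had a median of 0.128 (9 of 12 positive), and none of them reached an unadjusted p under 0.05. The spindle checkpoint (0.040) and the chromosomal passenger complex (0.021) lay closest to 0, also with no gene at that p. Differences between classes were not tested.

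Much of the AN difference came from AN9 and AN20. AN9 exceeded every AN P line in 32 genes and AN20 in 25, AN1 in 17 and AN15 in 4, and AN15 fell within the AN P range in 39 of 43. How many of all tested genes stood above every AN P line in each of these lines was not counted. AN9 and AN20 were picked after seeing the data, for their high values, so leaving both out had to lower the difference. Without them, 35 genes were still positive but the median was 0.056. At an unadjusted p under 0.05 there were then 0 genes, where 0.758% of all genes were. Left out alone, AN9, AN20 or AN6 each left 1 gene at that p (2.33%, against 1.93%, 1.51% and 3.69% of all genes). Leaving out AN3 or AN7 left 3 (6.98%, against 3.89% and 4.02%), and leaving out AN2 or AN15 gave 12 and 18 (27.9% and 41.9%, against 4.86% and 11.9%).

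**Figure D3:**
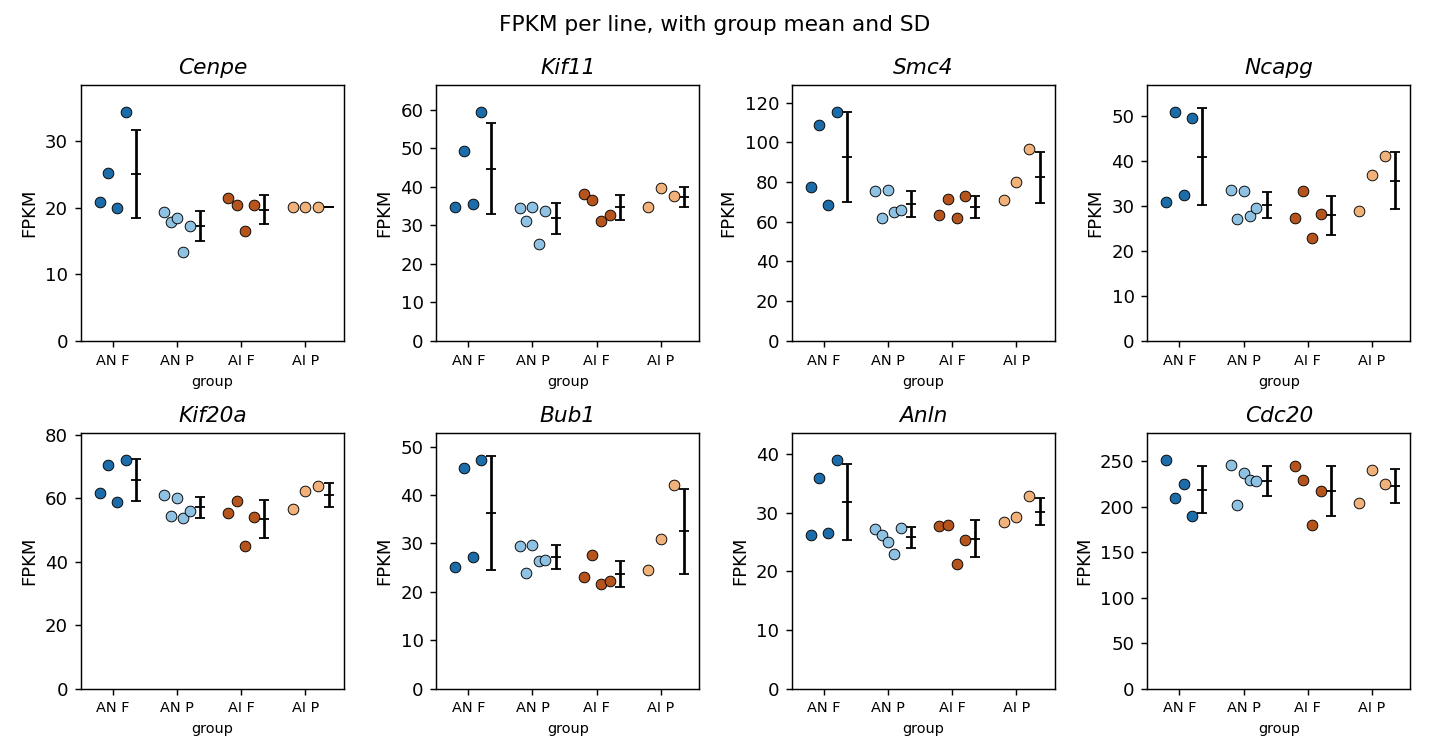
FPKM of 8 mitosis genes in each line, by group in the order of the text, with the group mean and SD beside the points; axes start at 0. Cenpe and Kif11 separate AN F from AN P in every line, Bub1 is highest in AN9, AN20 and GS9, and Cdc20 overlaps in all groups.

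In the induced lines the same comparison ran the other way. In AI F against AI P, 37 of 43 mitosis genes were lower in AI F, with a median difference of -0.185 in log2(FPKM + 1), against -0.040 over all tested genes, of which 43.7% were positive. With limma, 0 of 43 reached an unadjusted p under 0.05 in either direction, while 4.3% of all genes were lower and 3.47% higher at that p, and no gene of the table passed the adjustment (smallest adjusted p = 0.521). Only Anln was lower in all 4 AI F lines than in all 3 AI P lines, as were 3.19% of tested genes. With 4 against 3 lines the smallest exact permutation p is 0.0571.

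Bub1, the kinetochore kinase of the checkpoint, had the smallest p. It had 23.1, 27.5, 21.6 and 22.3 FPKM in AI3, AI7, AI10 and GS32 and 24.6, 30.9 and 42.0 FPKM in AI9, GS4 and GS9. GS9 was the highest, AI9 was below AI7, and the difference was -0.42 ± 0.18 (limma unadjusted p = 0.0559, exact permutation p = 0.114). Ccna2, the cyclin of S and G2 phase, had 82.3, 81.1, 67.9 and 78.3 FPKM in AI F and 78.6, 100.6 and 115.2 in AI P, a difference of -0.33 ± 0.15 (limma unadjusted p = 0.0617). Smc4 had 63.6, 71.5, 61.8 and 73.1 FPKM against 71.2, 79.9 and 96.4, a difference of -0.28 ± 0.13 (limma unadjusted p = 0.0667). In each of these genes GS9 was the highest of the AI lines and GS4 the next.

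Ncapg had 27.3, 33.3, 22.8 and 28.3 FPKM in AI F and 28.8, 36.8 and 41.3 in AI P, a difference of -0.34 ± 0.17 (limma unadjusted p = 0.0788). The passenger subunit Cdca8 had 96.0, 105.8, 85.3 and 92.8 FPKM in AI F and 95.7, 115.4 and 152.1 in AI P, a difference of -0.33 ± 0.17 (limma unadjusted p = 0.0894). Mad2l1 was at 85.8 and 94.5 FPKM in AI9 and GS4 and at 170.4 FPKM in GS9, its highest value in any line, and at 79.8 to 105.2 FPKM in AI F. Its group difference of -0.25 ± 0.24 (exact permutation p = 0.571, n = 4 and 3) was 0.05 without GS9. The groups overlapped in all of these genes.

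For Top2a the AI F lines had 178.4, 178.9, 128.9 and 169.3 FPKM and the AI P lines 160.6, 217.3 and 172.9, a difference of -0.16 ± 0.16. The difference of Kif20a was -0.19 ± 0.12, with 55.3, 59.0, 45.0 and 54.1 FPKM against 56.6, 62.1 and 64.0. Tpx2 differed by -0.19 ± 0.12, from 57.0 to 68.0 FPKM in AI F and from 63.6 to 84.0 in AI P. Cdc20 (-0.04 ± 0.13) and Cenpa (0.07 ± 0.12) had mean levels of 217.7 ± 27.6 and 75.8 ± 5.43 FPKM (SD, n = 4) in AI F and of 223.0 ± 18.5 and 72.3 ± 10.3 FPKM (SD, n = 3) in AI P. The limma unadjusted p was above 0.05 for all 5 genes, and their groups overlapped.

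All 7 classes had a negative median in this comparison: -0.252 for the spindle checkpoint, -0.234 for the passenger complex, -0.228 for spindle and cytokinesis, -0.191 for kinesins, -0.185 for centromere and kinetochore, -0.178 for condensin and topoisomerase and -0.100 for entry and exit. Nek2, Aurka, Bub3, Cenpa, Smc2 and Ncapd2 were the 6 genes above 0, at 0.01 to 0.08.

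Much of this difference in turn came from GS4 and GS9. GS9 was above every AI F line in 28 genes and GS4 in 27, whereas AI9 was above them in 3 and within their range in 34. How many of all tested genes stood above every AI F line in each of these lines was not counted. GS4 and GS9 were likewise picked after seeing the data, for their high values, so leaving both out had to shrink the difference. Without them, with AI9 as the only AI P line and its spread taken from AI F, the median difference was 0.029 and 27 of 43 genes were positive. With AI9 alone left out, 13 of 43 genes (30.2%) were at an unadjusted p under 0.05, when 24.9% of all tested genes were. With AI7 left out it was 3 (6.98%, against 12.6% of all genes), and with each other line left out 0 (against 2.65% to 4%). With derivation as a term (new, or established earlier as GS4, GS9 and GS32 were) the median was -0.100, with 35 of 43 lower and 0 at that p, against 1.9% of all genes. Scaling moved the mitosis genes and all genes together. After small RNA genes were removed and the lines rescaled, the median of all genes moved from -0.040 to 0.112 and that of the mitosis genes from -0.185 to -0.015, with 23 of 43 lower, so the set stayed below all genes. Quantile normalization gave medians of -0.013 and -0.090, with 32 of 43 lower.

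**Figure D4:**
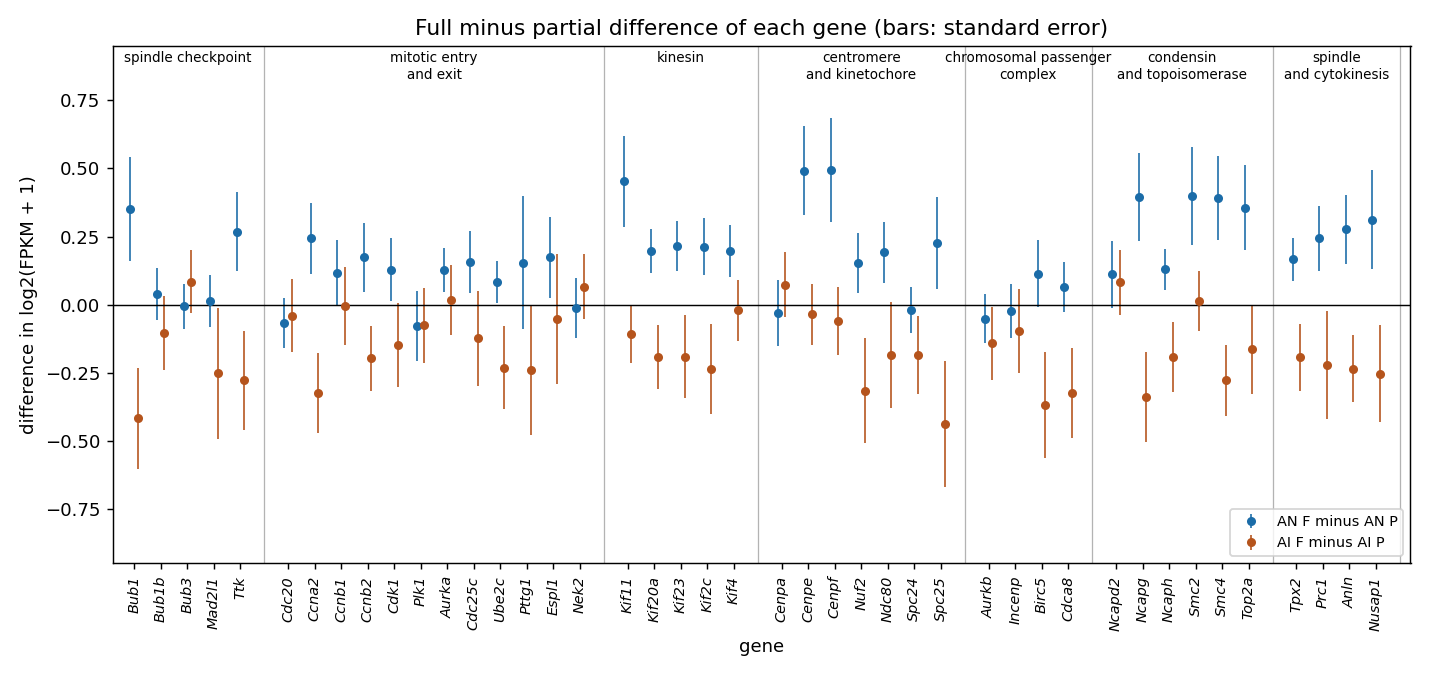
Difference between fully and partially reprogrammed lines in log2(FPKM + 1) for each mitosis gene by class, AN F minus AN P in blue and AI F minus AI P in orange, with bars of 1 standard error. Most blue points lie above 0 (35 of 43) and most orange points below it (37 of 43).

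The difference between both effects was then tested directly, with an interaction term over all 16 lines. The AI effect was below the AN effect in 38 of 43 genes, with a median gap of -0.377, against -0.040 over all tested genes, of which 45.4% were above 0. At an unadjusted p under 0.05, 17 of 43 had a smaller effect in AI and 0 a larger one, where 8.34% and 8.3% of all genes did. No gene of the table passed the adjustment, and the smallest adjusted p of a mitosis gene was 0.290 (limma, Benjamini-Hochberg). The gap was -0.67 ± 0.22 for Smc4 (unadjusted p = 0.00768), -0.73 ± 0.24 for Ncapg (0.00858) and -0.39 ± 0.14 for Kif20a (0.0132). By class, 4 of 5 kinesins, 4 of 7 centromere and kinetochore genes, 4 of 6 condensin and topoisomerase genes, 2 of 5 checkpoint genes, 2 of 4 spindle and cytokinesis genes and 1 of 12 entry and exit genes were at that p, and none of the 4 passenger genes. In all, 32 genes were higher in AN F than AN P and lower in AI F than AI P. The share of all tested genes with both signs was not counted. Taken singly, 46.2% of them were positive in AN and 43.7% in AI.

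AN9 and AN20, like GS4 and GS9, were picked for their high values, so leaving out either pair had to shrink the gap. The count was 0 without AN9 and AN20, when 2.97% of all genes were at that p, and the median was -0.248. Without GS4 and GS9, with AI9 the only AI P line, the median was -0.115. Leaving out each line in turn gave 7 to 23 genes. The lowest counts were 7 without AI10, 8 without AN20, 9 each without AN3, AN9 and GS9, and 11 without GS4, with 9.03% to 12.1% of all genes at that p. The highest were 23 without AN15 (18.8% of all genes), and 22 each without AN2 (15.3%) and AI9 (29.7%). Small RNA removal and rescaling gave 5 genes, with 32 of 43 below 0. It moved the median gap of all genes from -0.040 to 0.091 and that of the mitosis genes from -0.377 to -0.234, and 15.1% of all genes were at that p. With the fibroblast marker mean of each line added to the model, the median gap was -0.087, with 29 of 43 below 0, and 0 genes were at an unadjusted p under 0.05. The term lowered the share of all genes at that p to 1.3%, and their median gap was 0.

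The same term changed each F against P comparison. With it, the AN median was 0.092 with 1 gene (2.33%) at an unadjusted p under 0.05, and the AI median was 0.024 with 23 of 43 genes positive and 0 at that p. Calls fell across the whole table, to 1.97% of all genes in AN and 0.94% in AI. In the plain comparisons the fibroblast markers themselves had a median of -0.246 in AN F against AN P (16 of 18 lower) and of 1.042 in AI F against AI P (18 of 18 higher), opposite in sign to the mitosis genes in both. At an unadjusted p under 0.05, 0 of 18 markers differed in AN and 3 were higher in AI, where 3.47% of all genes were higher. S100a4 differed by 1.17 ± 0.41 in AI, where the marker differences ran from 0.049 to 1.346. Whether the share of fibroblasts in a culture set the level of the mitosis genes was not tested.

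Fully reprogrammed lines were also compared across the methods, in AN F against AI F. Here 37 of 43 mitosis genes were higher in AN F, with a median of 0.221 against 0.015 over all tested genes, of which 53.1% were positive. At an unadjusted limma p under 0.05, 9 were higher and 0 lower, against 5.31% and 4.13% of all genes, and 0 of 43 passed the adjustment, against 0.00758% (smallest adjusted p = 0.496). Cdc25c, the Cdk1 phosphatase, had 10.3, 11.6, 9.24 and 11.3 FPKM in AN1, AN9, AN15 and AN20 and 7.75, 9.17, 8.50 and 8.92 in AI3, AI7, AI10 and GS32. It was the only mitosis gene without overlap, which 2.05% of tested genes showed, and it differed by 0.27 ± 0.10 (limma unadjusted p = 0.0223, exact permutation p = 0.0286, the smallest possible). Kif20a differed by 0.30 ± 0.11 (limma unadjusted p = 0.0228, exact permutation p = 0.0571). Ncapg differed by 0.51 ± 0.19 (limma unadjusted p = 0.0255, exact permutation p = 0.0857), and the groups overlapped in both. The other 6 at an unadjusted limma p under 0.05 were Spc25, Bub1, Kif2c, Ncaph, Smc4 and Ccna2. Leaving out AN9 and AN20, picked for their high values, had to lower the difference. Without them, 38 were positive with a median of 0.057 and 1 at an unadjusted p under 0.05, where 1.35% of all genes were. That count was 0 without AN9, 1 without AN20 or AI10, 3 without AI3 and 5 without GS32, when 2.86% to 6.22% of all genes were at that p. It was 19 without AN15, against 13% of all genes, and 2 with passage number as a term, against 3.8%. With the fibroblast marker mean as a term, the median was 0.0895 with 37 of 43 positive and 0 at that p, against 2.2% of all genes. In the same comparison the fibroblast markers had a median of -0.548, with 15 of 18 lower in AN F and 5 at that p, and 13 of 13 stem cell markers were higher, 2 at that p. Their part in the result was not tested.

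Partially reprogrammed lines showed the opposite order. In AN P against AI P, 40 of 43 genes were lower in AN P, with a median of -0.156 against -0.013 over all tested genes, of which 47.1% were positive. Only Anln was at an unadjusted limma p under 0.05, where 2.48% of all genes were lower and 3.21% higher. Its adjusted p was 0.719, and 0.0152% of all genes passed the adjustment. This furrow protein had 27.3, 26.3, 25.1, 23.0 and 27.4 FPKM in AN2, AN3, AN5, AN6 and AN7 and 28.5, 29.3 and 32.8 in AI9, GS4 and GS9, a difference of -0.22 ± 0.09 (limma unadjusted p = 0.0410, exact permutation p = 0.0357, the smallest possible). Anln, Kif11 and Cenpe were below all AI P lines in all 5 AN P lines, as were 1.65% of tested genes. Cenpe was nearly level in AI P, at 20.2, 20.1 and 20.1 FPKM. Smc4 differed by -0.25 ± 0.12 and Ube2c by -0.23 ± 0.12, with overlap in both. GS4 and GS9 were picked for their high values, so leaving both out had to raise the difference. With AI9 then the only AI P line, the median was 0.094. After small RNA removal and rescaling 30 of 43 were lower. When AI9 alone was left out, 14 genes (32.6%) were at an unadjusted p under 0.05, as were 21.8% of all tested genes. The count was 0 without AN2, AN3, AN5, AN6, GS4 or GS9 alone, when 3.44% to 4.7% of all genes were at that p. With the fibroblast marker mean as a term, the median was 0.0116 with 26 of 43 positive and 0 at that p, against 3.06% of all genes. The fibroblast markers had a median of 0.751, with 18 of 18 higher in AN P and 2 at that p, and 12 of 13 stem cell markers were lower, 1 at that p. Their part in the result was not tested. The AN P lines enter this comparison and the AN F against AN P comparison, and the AI P lines likewise enter 2 of them, so the 4 comparisons are not independent.

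Other genes of the division cycle were taken from lists that do not overlap with the 43. Of all tested genes, 46.2% were positive in AN F against AN P, with 3.02% higher and 2.99% lower at an unadjusted p under 0.05. In AI F against AI P 43.7% were positive, with 3.47% higher and 4.3% lower at that p. The counts of all lists that follow are to be read against these shares. Cohesin and condensin II genes, which hold and fold sister chromatids, were higher in AN F than AN P in 18 of 18, with a median of 0.320 and 6 at an unadjusted p under 0.05. The cohesion protector Sgol1 differed by 0.37 ± 0.13 and the cohesin subunit Rad21, the highest at 102.2 FPKM, by 0.20 ± 0.11. In AI F against AI P 14 of 18 were lower, with 0 at that p, and Sgol2 differed by -0.23 ± 0.12. Of 8 other mitotic kinesins 7 were higher in AN F and 8 lower in AI F, with 3 and 0 at an unadjusted p under 0.05. Kif20b differed by 0.47 ± 0.16 in AN and -0.41 ± 0.22 in AI, and Kif22 by 0.05 ± 0.10 and -0.10 ± 0.17. Of 26 tested centromere and kinetochore genes outside the set, 20 were higher in AN F (5 at that p) and 23 lower in AI F (1 at that p). Cenpc1 differed by 0.25 ± 0.10 in AN, Zwilch by -0.53 ± 0.17 in AI, and Zwint, the highest, by -0.19 ± 0.16 and 0.05 ± 0.12.

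M phase transcription regulators were higher in AN F in 13 of 14, with a median of 0.128 and 2 at an unadjusted p under 0.05, among them the DREAM subunit Lin54 at 0.41 ± 0.15, and 9 of 14 were lower in AI F with 0 at that p. Their highest gene, the E2F partner Tfdp1, differed by -0.01 ± 0.12 in AN and -0.32 ± 0.17 in AI. G2/M kinases, phosphatases and their regulators had medians of 0.063 and -0.148. At that p there was 1 of 13 in AN (Mastl, 0.41 ± 0.17) and 0 in AI, where Cks2 differed by -0.28 ± 0.13. Cks1b, the highest, was at -0.04 ± 0.11 and -0.08 ± 0.18. APC/C genes went both ways in AN, from -0.327 to 0.307 with a median of 0.012, and had a median of -0.155 in AI. At that p 1 and 2 of 14 were lower, against 2.99% and 4.3% of all genes, and 0 were higher. Their small subunit Anapc13, the highest, differed by -0.33 ± 0.13 and -0.51 ± 0.22, and Anapc10 by -0.61 ± 0.23 in AI.

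Genes of earlier cycle phases were also examined. G1/S regulators had medians of 0.031 in AN and -0.080 in AI, each with 16 genes. Cdk6 differed by 0.23 ± 0.08 in AN, cyclin D1 (Ccnd1) by 0.51 ± 0.14 in AI, and Cdk4, the highest, by -0.08 ± 0.08 and -0.12 ± 0.15. All AI F lines stood above all AI P lines in 2 of the 16, among them Ccnd1, and below in 1, against 224 and 421 of 13185 tested genes. AI differences ran from -0.366 to 1.038. At an unadjusted p under 0.05, 1 was higher and 1 lower in AI (3.47% and 4.3% of all genes), and 1 was higher and 0 lower in AN (3.02% and 2.99%). DNA replication genes had a median of 0.079 in AN (30 of 41 positive, 1 at an unadjusted p under 0.05 in each direction) and of -0.146 in AI (37 of 41 negative, 0 at that p). Pcna differed by -0.05 ± 0.10 and -0.24 ± 0.21, Orc3 by 0.40 ± 0.15 in AN and Rpa3 by -0.40 ± 0.17 in AI. Pluripotency markers had medians of 0.105 and -0.419, with 0 and 2 of 13 at that p. The highest, Dppa5a, differed by 0.11 ± 0.18 and -0.42 ± 0.23, Sall4 by 0.37 ± 0.25 in AN and Klf2 by -0.81 ± 0.29 in AI. No gene of these lists passed the adjustment in either comparison.

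The AN difference of a mitosis gene varied with the base composition and the length of its transcript. GC content of the longest coding transcript ran from 39.3% for Smc2 to 56.1% for Espl1, with a median of 47.3%, against 50.6% over tested genes. Over the 43 genes, Spearman's rho between GC content and the AN F minus AN P difference was -0.73, and over 12461 tested genes with a transcript it was -0.51. For AI F minus AI P rho was 0.38 over the mitosis genes and 0.20 over tested genes. For transcript length rho was 0.63 in AN and 0.14 in AI over the mitosis genes, and 0.30 and 0.31 over tested genes. These are correlations across genes of the same libraries and carry no p. Smc2, Ncapg, Smc4, Kif11, Cenpe and Cenpf, all at 39.3% to 43.3% GC, had AN differences of 0.39 to 0.50. In the same GC range Bub1 had 0.35, Nusap1 0.31, Ttk 0.27, Nuf2 0.15 and Mad2l1, at 40.8% GC, 0.01. Cdc20 and Plk1, at 55.6% and 56.0% GC, had -0.07 and -0.08, while Ube2c and Espl1, at 55.5% and 56.1% GC, had 0.08 and 0.17.

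The 22 mitosis genes of lower GC content had an AN median of 0.256 and the 21 of higher GC content 0.111, against 0.0996 and -0.058 for tested genes on the same sides of that limit. In AI the medians were -0.228 and -0.123, against -0.092 and -0.007. By line, the lower-GC genes stood above their 16-line mean by 0.41 in AN20, 0.35 in GS9 and 0.32 in AN9, and the higher-GC genes by -0.01, 0.15 and 0.12. All tested genes of lower GC content stood highest in the same 3 lines, at 0.19, 0.14 and 0.14. GS4 had 0.09 and 0.16 for the mitosis genes. What set these GC-linked differences was not tested.

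**Figure D5:**
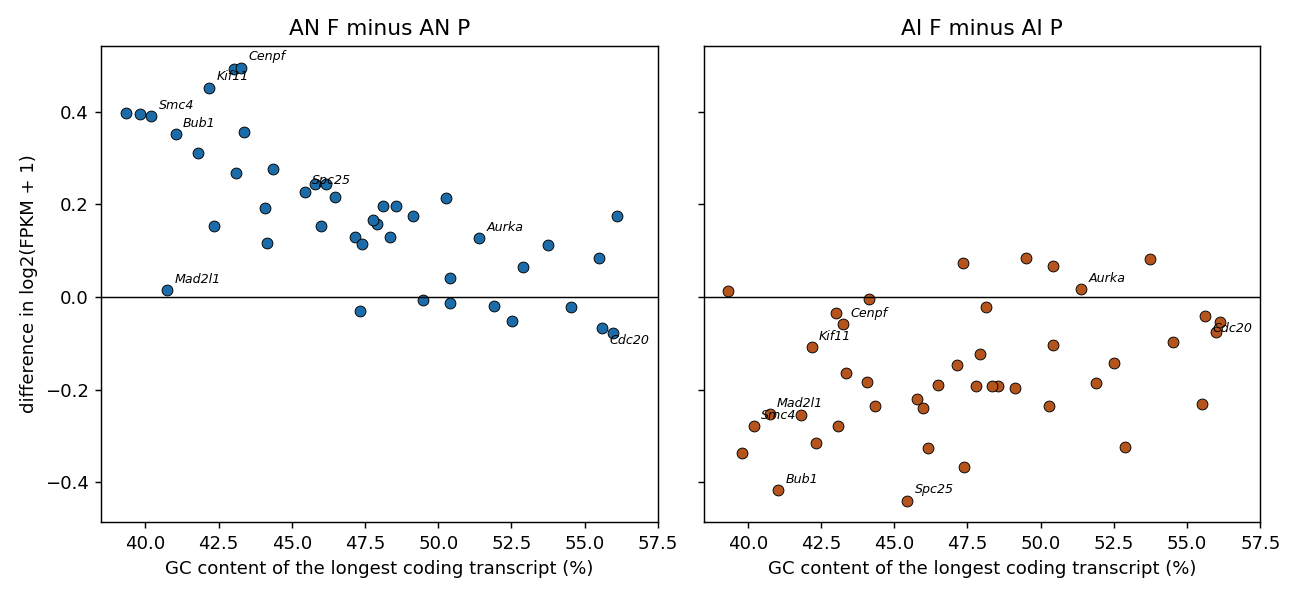
Difference in log2(FPKM + 1) between fully and partially reprogrammed lines (y axis) against GC content of the longest coding transcript in percent (x axis) for the 43 mitosis genes, AN lines left and AI lines right. AN differences fall from left to right (rho = -0.73), and AI differences are mostly below 0 with a weaker opposite slope (rho = 0.38).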

How the data were processed

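Total RNA of 16 lines was sequenced as single-end reads. The authors mapped them to mm9 with TopHat2 2.1.0 and calculated FPKM with Cufflinks 2.2.1, and HTSeq is also named in the submitters' processing notes. The study names a GTF annotation for mm9, and its provider and the library normalization are not given in the sources used here. The deposited FPKM values were used as they stand, 1 per gene name and line. The sample titles give only the name of each line, and its class, F or P, is the one that the study's text assigns to that name. Read totals are unknown; relative depth was read from the step between values up to 0.3 FPKM. The strand setting of the FPKM calculation is not given, so reads of the 16 mitosis genes that overlap another annotated gene cannot be assigned to 1 strand.

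Values were transformed to log2(FPKM + 1) and tested with limma 3.58.1 (mean-variance trend, R 4.3.3) over the 13185 genes with a mean of at least 0.5 FPKM, using the lines of the groups compared, or all 16 lines for the interaction, with Benjamini-Hochberg adjustment. The study's Cuffdiff test needs reads and was not run. Single genes were also tested with exact two-sided permutation tests (172 tests, scipy 1.17.1, Python 3.11.15), whose p-values are unadjusted. The fits were tested on simulated data. Locations, transcript length and GC content came from the NCBIM37 gene annotation.

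Genes with full statistics were the highest of each of 7 classes, the 5 of smallest p in each F against P comparison, and the 3 of smallest p in each other comparison and in the interaction. Of each of 10 other lists, the highest gene and those of smallest p were named. The members, classes and lists were chosen with earlier results of these data known. Alternatives were another pseudocount (0.1), minimum (5 FPKM or none), scaling and model, added terms, and leaving out each line.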

Additional observations from a re-analysis of the deposited data

Results flagged for a closer look

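In 5 of 129 tests of a gene within a group of 4 or 5 lines, 1 line stood apart from the others by Dixon's criterion at 95%; chance gives about 6.45. Aurka, the spindle pole kinase, had 74.3 FPKM in AN1, where the other AN F lines had 67.3 to 68.4 FPKM. It had 53.2 FPKM in AN6, where the other AN P lines had 64.5 to 67.5 FPKM. The checkpoint gene Bub3 had 104.5 FPKM in AI3, with 82.7 to 86.3 FPKM in the other AI F lines. AI10 stood below the other AI F lines in Cenpf, at 13.8 against 17.2 to 17.8 FPKM, and in Prc1, at 36.4 against 47.9 to 48.9 FPKM. AI10 also had the lowest value of 19 of the 43 genes.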

How the results depend on the processing

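No gene of the set passed an adjusted p of 0.05 in any setting reported here for named genes, and each line has 1 library, so the precision is that of 3 to 5 lines per group. The FPKM table gives no read counts, so counting error is unknown. Medians of the 43 genes kept their sign in every alternative except those named here. No paired analysis was possible because line names are names of clones and do not pair lines across groups.

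The median for AI F against AI P was -0.0151 after small RNA removal and rescaling, and was positive with the fibroblast marker term (0.0239) and without GS4 and GS9 (0.029). For AN P against AI P it was positive under the latter pair of settings (0.0116 and 0.0943). For AN F against AI F it was 0.0574 without AN9 and AN20. Leaving out each line gave medians of 0.128 to 0.2232 (AN F against AN P), -0.2594 to -0.0915 (AI F against AI P), 0.1544 to 0.292 (AN F against AI F) and -0.2594 to -0.0566 (AN P against AI P).

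The number of mitosis genes at an unadjusted p under 0.05 is given with the share of all genes at that p in brackets. In AN F against AN P the number was 15 after small RNA removal (7.01%) and 1 with the fibroblast term (1.97%). It was 0 without AN9 and AN20 (0.758%) and 1 to 18 without each line (1.51% to 15.8%). In AI F against AI P it was 1 after small RNA removal (8.45%), 2 in the fit of all 16 lines (16.8%) and 1 with a robust prior (8.59%). Without each line it was 0 to 13 (2.65% to 24.9%). In AN F against AI F it was 2 with passage as a term (3.8%), 0 with the fibroblast term (2.2%) and 1 without AN9 and AN20 (1.35%). It was 5 without GS9 and GS32 (5.47%) and 0 to 19 without each line (2.86% to 18%). In AN P against AI P it was 0 after small RNA removal (5.52%), in the fit of all 16 lines (7.02%) and with a robust prior (5.48%). It was also 0 with the fibroblast term (3.06%) and without GS9 and GS32 (3.69%), and 0 to 14 without each line (3.44% to 21.8%). For the interaction it was 5 after small RNA removal (15.1%), 0 with the fibroblast term (1.3%) and 0 without AN9 and AN20 (2.97%). It was 4 without GS9 and GS32 (6.38%) and 7 to 23 without each line (9.03% to 29.7%).

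Genes of the whole table past the adjustment numbered 0 in AN F against AN P (3 without AN9 and AN20, 0 to 1 without each line) and 0 in AI F against AI P (20 without GS4 and GS9, 6 without GS9 and GS32, 0 to 5 without each line). In AN F against AI F there was 1, Mir302b, against 0 after small RNA removal, 0 in the fit of all 16 lines, 2 with passage as a term, 3 without AN9 and AN20, 2 without GS9 and GS32, and 1 to 3 without each line. In AN P against AI P there were 2, Mir27a and Mir3072, against 0 after small RNA removal, 0 in the fit of all 16 lines, 1 with a robust prior, 1 with passage as a term, 1 with the fibroblast term, 17 without GS4 and GS9, 5 without GS9 and GS32, and 1 to 19 without each line.

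Single genes of small difference changed sign. In AI F against AI P, Cdc20 was 0.1157 under quantile normalization, 0.1334 after small RNA removal, 0.06912 with the fibroblast term, and 0.0865 without GS4 and GS9, with -0.1043 to 0.04771 without each line. Top2a was 0.0001492 under quantile normalization, 0.01043 after small RNA removal and 0.01665 without GS4 and GS9, and Tpx2 was 0.01483 without GS4 and GS9. Mad2l1 was 0.1144 with the fibroblast term, 0.1211 without GS4 and GS9, 0.04975 without GS9 and GS32, and -0.4392 to 0.05172 without each line. Cenpa was -0.0004325 to 0.1849 without each line. In AN F against AN P, Cdc20 was 0.05808 without AN9 and AN20. Mad2l1 was -0.125 without AN9 and AN20, -0.06238 with the fibroblast term, and -0.04898 to 0.07219 without each line. Cenpa was 0.004504 without AN9 and AN20, 0.001843 with passage as a term, and -0.107 to 0.03645 without each line. The other 670 values of named genes kept direction and side of the threshold. Leaving out AN9 and AN20, GS4 and GS9, or GS9 and GS32 and adding the fibroblast term were chosen after seeing the data. The cause of these changes was not tested.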
